A study of Mus musculus with 6 samples.

Results

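The enolase genes of the mouse are Eno1, Eno2, Eno3 and Eno4, and Eno1 also has an intron-poor copy, Eno1b, that the gene annotation tags as a retrogene. These 5 genes were taken by name from the 55376 genes of a count table of WT and Wfs1-KO retinas, and all 5 passed the filter on low counts that left 18547 genes for testing. They were chosen by measured values, since Eno1b was 1 of the 2 genes past the threshold when the genotypes were compared, so their values in that comparison are given as a description with no test. RNA of whole retinas, 1 library per mouse from 3 WT and 3 Wfs1-KO animals, had been sequenced at 8 months of age to look for transcript changes that come before the loss of tissue in this model of Wolfram syndrome. Wfs1 encodes wolframin, a membrane protein of the endoplasmic reticulum, and the mutant mice carry a targeted allele of Wfs1 that lacks exon 8. WT animals were controls of the same age, and the labels name no treatment. The labels name the strain of both groups as C57x129, whereas the methods give a C57BL/6 J background, and age is labelled as postnatal day 240. How the retinas of the groups were related by litter is not given in the sources used here.

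Enolase catalyses the step of glycolysis that turns 2-phosphoglycerate into phosphoenolpyruvate, and the active enzyme is a pair of subunits. Eno1 encodes the alpha subunit found in most cells, Eno2 the gamma subunit of neurons and Eno3 the beta subunit of muscle, while Eno4 encodes a more distant, enolase-related protein known from the sperm tail. The retina is a tissue with a high rate of glycolysis, most of it in photoreceptors. A retrogene arises when a spliced transcript is copied back into the genome, and it can be expressed from its new place if a promoter lies nearby.

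Libraries held between 17916885 and 101334381 counts, so that 3 counts correspond to 0.0291 to 0.170 CPM, that is counts scaled to a common library size after TMM normalization. One mutant library, Wfs1-KO replicate 2, was unlike the others, with a mean Pearson correlation to the others of 0.918 across genes against 0.962 to 0.971 for the remaining 5, and values without it are given beside those that rest on it. Summed markers of rods were 64002 to 71952 CPM in WT and 47181 to 64223 CPM in Wfs1-KO retinas, those of cones 920 to 976 and 792 to 911 CPM, and those of bipolar cells 739 to 799 and 820 to 1036 CPM. Cone sums were thus lower, and bipolar sums and the lens sums given next higher, in every mutant retina. Groups also did not overlap for 8.96% of all tested genes in either direction, and no single marker passed the threshold. Nothing about cell types is read from these sums. Müller glia markers summed to 4354 to 5036 CPM in WT and 3753 to 6449 CPM in Wfs1-KO, lens markers to 1.03 to 1.14 and 1.29 to 1.52 CPM, and pigment epithelium markers to 66.1 to 100.5 and 27.6 to 278 CPM, the last value in Wfs1-KO replicate 2. The part of these cell types in the enolase levels was not tested. Hemoglobin genes and the red cell enzyme Alas2 summed to 12.3 to 41.2 CPM in WT and to 20.1 to 480 CPM in Wfs1-KO, with the highest value in Wfs1-KO replicate 2. Wfs1 itself had 65.4 ± 4.30 CPM in WT and 7.34 ± 5.65 CPM in Wfs1-KO retinas (SD, n = 3 each), and no mutant retina reached a WT value. Its log2 fold change was -3.15 (adjusted p = 0.979, edgeR), so the targeted gene did not pass the threshold with all retinas. Without Wfs1-KO replicate 2 the value was -2.64 (adjusted p = 2.84e-05, edgeR). A gene that did not pass with all retinas can thus still differ between the genotypes. Because whole tissue was sequenced, fewer cells of a type and less RNA per cell cannot be told apart in any value below.

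Eno1 and Eno1b encode the same protein. In the annotation used here (GENCODE M21, build mm10) both coding sequences were 1305 bases long and 99.4% identical, with 8 differing bases, and all 8 were synonymous changes at the last base of a codon. The translated proteins, 434 residues each, were 100% identical. The longest stretch without a difference was 725 bases, and the next longest 230 bases. All differing positions lay in exons 8, 9 and 11 of the 12-exon Eno1 transcript, so most of the coding sequence cannot tell the 2 genes apart. The following 25-base stretches of Eno1 are shown because reads that cover a marked base, unlike reads elsewhere in the coding region, can be told from Eno1b reads. They run 5′ to 3′ on the plus strand of chromosome 4, and capitals mark the bases at which Eno1b differs. The first 3 lie in exon 8, at chr4:150246616-150246640, chr4:150246637-150246661 and chr4:150246706-150246730, the next in exon 9 at chr4:150247620-150247644, and the last starts in exon 11 at 150248096 and runs across a splice junction to 150248486.
Eno1 exon 8, 1 differing base: ccaggttgtcatTggcatggatgtg
Eno1 exon 8, 2 differing bases: tgtggctgcctcCgaGttctacagg
Eno1 exon 8, 1 differing base: caggtacatcacTcccgaccagctg
Eno1 exon 9, 2 differing bases: ccagatcggctcTgtgaccgaAtcc
Eno1 exon 11 onward, 2 differing bases: ggccaagtacaaTcagatcctCaga

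The consequence for counting was measured by cutting each annotated transcript into windows and asking how many occur in no other annotated gene. At a window length of 50 bases, 27.8% of Eno1 windows and 15.5% of Eno1b windows were unique. At 150 bases the shares were 51.0% and 39.0%. Of the 50-base windows of Eno1, 70.5% also occurred in Eno1b, and 75.3% of those of Eno1b also occurred in Eno1. Eno2, Eno3 and Eno4 windows were unique at 99.96% or more for every length tried. The read length, and how reads with several matches were counted, are not given in the sources used here, so counts of Eno1 and Eno1b are uncertain in how they divide reads between them, while counts of Eno2, Eno3 and Eno4 are not affected in this way. Between the paralogs the encoded proteins were 82.9% identical for Eno1 and Eno2, 83.6% for Eno1 and Eno3, 82.9% for Eno2 and Eno3, and 17.6% for Eno1 and Eno4.

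**Figure D1:**
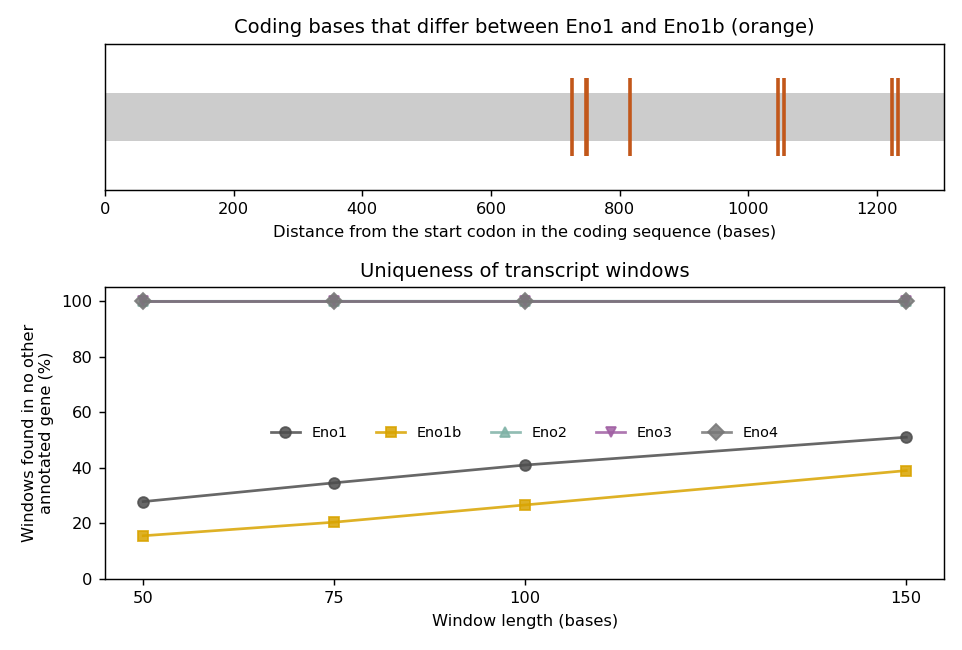
The upper panel marks the 8 coding positions at which Eno1 and Eno1b differ, by distance from the start codon in bases, along a coding sequence of 1305 bases. The lower panel gives the percentage of transcript windows found in no other annotated gene against window length in bases, and shows Eno1 rising from 27.8% to 51.0% and Eno1b from 15.5% to 39.0%, while Eno2, Eno3 and Eno4 lie on top of each other near 100%.

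Eno1b (ENSMUSG00000059040.5) is a gene of 2 exons on the plus strand of chromosome 18, from 48045335 to 48048412 in mm10. It was lower in every Wfs1-KO retina. WT replicates 1, 2 and 3 had 18271, 9459 and 3894 counts, or 275, 199 and 221 CPM. Wfs1-KO replicates 1, 2 and 3 had 178, 34 and 81 counts, or 1.73, 0.805 and 1.84 CPM. The lowest WT value was far above the highest mutant value, and the mutant counts were above 3 in each library, so the counts were low but not 0. Because Eno1 and Eno1b share most of their sequence, these few reads may belong to either gene, which was not tested. Group means were 232 ± 39.2 CPM in WT and 1.46 ± 0.568 CPM in Wfs1-KO (SD, n = 3 each), a 159-fold ratio of WT over Wfs1-KO. The fitted log2 fold change, Wfs1-KO over WT, was -7.30 (standard error, SE, 0.40), and -7.03 (SE 0.23) without Wfs1-KO replicate 2. In this comparison 0.0108% of tested genes had an adjusted p under 0.05 (quasi-likelihood test of edgeR, Benjamini-Hochberg adjustment), 2 genes in all, and 0.125% did when Wfs1-KO replicate 2 was left out. Because this contrast chose Eno1b, nothing is read from those shares.

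Eno1 (ENSMUSG00000063524.13), the parent gene, lies on chromosome 4 from 150236952 to 150248879 on the plus strand. Its levels were 2399, 1939 and 2166 CPM in WT replicates 1, 2 and 3, and 2594, 3058 and 2229 CPM in Wfs1-KO replicates 1, 2 and 3. The groups overlapped, with Wfs1-KO replicate 3 below WT replicate 1, and the highest value was that of Wfs1-KO replicate 2. The means were 2168 ± 230 CPM and 2627 ± 415 CPM (SD, n = 3 each). The log2 fold change was 0.28 (SE 0.19), and 0.15 (SE 0.13) without Wfs1-KO replicate 2. With the counts of Eno1 and Eno1b added together as 1 gene, which does not depend on how counted reads were divided between them, it was 0.13 (SE 0.19). Any reads left uncounted for having several matches are missing from that quantity. In CPM this sum was 2674, 2138 and 2387 in WT and 2596, 3058 and 2231 in Wfs1-KO replicates 1, 2 and 3, again with overlapping groups.

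The share of Eno1 and Eno1b counts that fell on Eno1b is a ratio within a library and so does not depend on library scaling. It was 10.3% (95% Wilson interval 10.1 to 10.4), 9.30% (9.12 to 9.48) and 9.26% (8.99 to 9.54) in WT replicates 1, 2 and 3. In Wfs1-KO replicates 1, 2 and 3 it was 0.0666% (0.0575 to 0.0771), 0.0263% (0.0188 to 0.0368) and 0.0824% (0.0663 to 0.102). Within each group 1 retina stood apart from the others by its interval, WT replicate 1 as the highest of WT and Wfs1-KO replicate 2 as the lowest of Wfs1-KO. Means were 9.61 ± 0.583% in WT and 0.0584 ± 0.0289% in Wfs1-KO (SD, n = 3 each). The intervals cover counting error only.

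**Figure D2:**
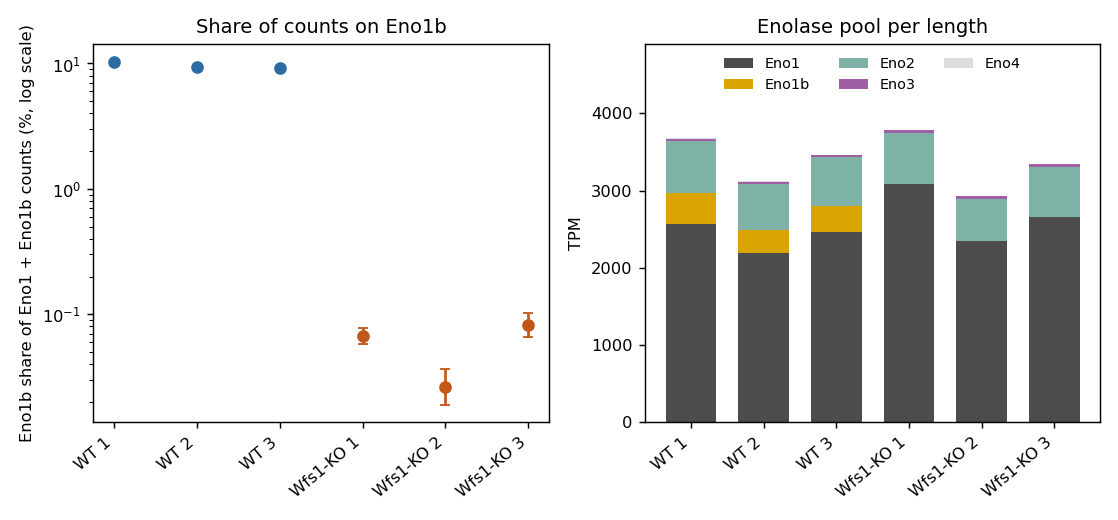
The left panel plots, on a log axis, the Eno1b share of Eno1 plus Eno1b counts in percent for each retina, with 95% Wilson intervals as bars; WT retinas lie between 9.26% and 10.3% and Wfs1-KO retinas between 0.0263% and 0.0824%. The right panel stacks the levels of the 5 enolase genes in TPM (counts per exon length, scaled within a library) for each retina, and shows the Eno1b band of the WT bars missing from the Wfs1-KO bars while bar heights of the groups overlap.

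Eno2 (ENSMUSG00000004267.16; chromosome 6, 124760055 to 124769673, minus strand), the neuronal enolase, had 692, 574 and 610 CPM in WT and 613, 767 and 602 CPM in Wfs1-KO replicates 1, 2 and 3. Wfs1-KO replicates 1 and 3 lay inside the WT range, and Wfs1-KO replicate 2 was the highest of all in CPM but the lowest of all in TPM (counts per exon length, scaled within a library), at 537 against 591 to 674. The means were 625 ± 60.6 CPM and 661 ± 92.4 CPM (SD, n = 3 each), with a log2 fold change of 0.08 (SE 0.18) that became -0.05 (SE 0.13) without that retina. Ganglion cell markers, 6 genes, summed to 903 to 1070 CPM in WT and to 779 to 1299 CPM in Wfs1-KO, and 5 of the 6 were also highest in Wfs1-KO replicate 2 on the CPM scale. The part of these cells in the Eno2 level was not tested.

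Eno3 (ENSMUSG00000060600.15; chromosome 11, 70657202 to 70662513, plus strand), the muscle enolase, had 20.5, 16.2 and 13.8 CPM in WT and 16.4, 37.4 and 17.5 CPM in Wfs1-KO replicates 1, 2 and 3. Wfs1-KO replicates 1 and 3 lay inside the WT range, and replicate 2 stood above all others. The means were 16.8 ± 3.35 CPM and 23.8 ± 11.8 CPM (SD, n = 3 each). The log2 fold change was 0.49 (SE 0.35) with all retinas and -0.0081 (SE 0.19) without Wfs1-KO replicate 2. Skeletal muscle markers, 10 genes, summed to 5.90 to 6.55 CPM in WT and 5.59 to 11.3 CPM in Wfs1-KO retinas, with 11.3 CPM in Wfs1-KO replicate 2, and 4 of the 10 were highest in that library. Of the defining muscle genes, Tnnc2 and Myh4 had 0 counts in all 6 retinas, while Mylpf had 5.38 CPM in Wfs1-KO replicate 2 and 2.04 to 3.72 CPM in the others. How many of all tested genes were highest in Wfs1-KO replicate 2 was not counted, here or for the ganglion cell markers. The part of muscle RNA in the Eno3 level was not tested.

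Eno4 (ENSMUSG00000048029.10; chromosome 19, 58943425 to 58971421, plus strand) was the lowest of the 4 paralogs. It had 259, 140 and 78 counts in WT and 339, 94 and 163 counts in Wfs1-KO replicates 1, 2 and 3, or 3.90, 2.94 and 4.43 CPM against 3.29, 2.23 and 3.70 CPM. The groups overlapped, and here Wfs1-KO replicate 2 was the lowest. The means were 3.76 ± 0.753 CPM and 3.07 ± 0.761 CPM (SD, n = 3 each). The log2 fold change was -0.28 (SE 0.31), and -0.10 (SE 0.25) without that retina. No exon of another gene in the deposited annotation overlapped those of the 5 genes, but in GENCODE M21 the first exon of Hspa12a overlaps that of Eno4 on the opposite strand, and as the strand setting of the counting is not given, reads there cannot be assigned with certainty. The median log2 fold change over all tested genes was 0.02. Eno1b was the only 1 of the 5 genes whose groups did not overlap in CPM, against 8.96% of all tested genes in either direction, a count that the choice of the gene fixes.

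**Figure D3:**
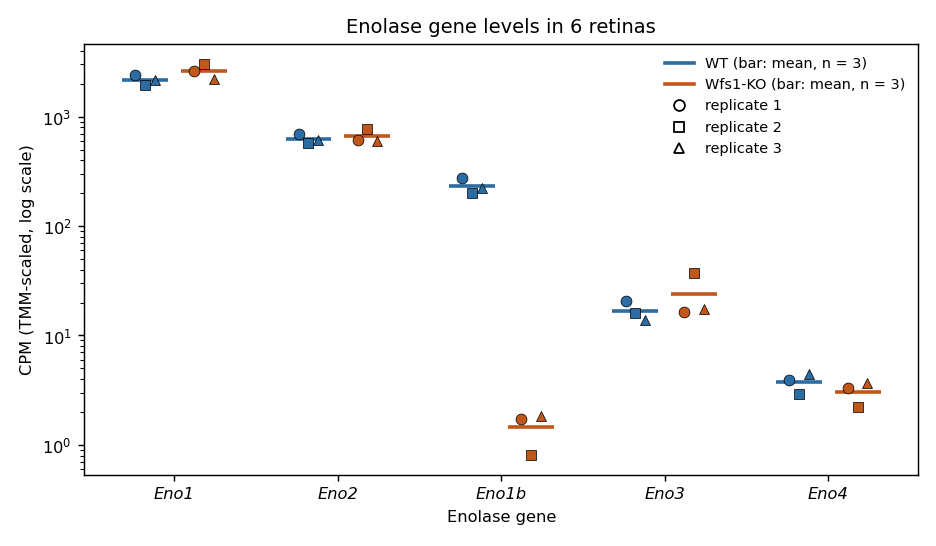
TMM-scaled CPM of the 5 enolase genes on a log axis, with 1 point per retina, shapes for replicates and bars for group means (n = 3). The genotypes overlap for Eno1, Eno2, Eno3 and Eno4, and are far apart for Eno1b, at 199 to 275 CPM in WT and 0.805 to 1.84 CPM in Wfs1-KO.

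To compare the genes with each other, counts were divided by exon length and scaled to TPM within each retina. Eno1 had 2406 ± 192 TPM in WT and 2696 ± 368 TPM in Wfs1-KO, and Eno2 had 632 ± 41.6 TPM and 618 ± 69.9 TPM (SD, n = 3 each). Eno3 had 30.3 ± 5.02 TPM and 37.4 ± 8.18 TPM, and Eno4 had 4.14 ± 0.843 TPM and 3.31 ± 1.42 TPM (SD, n = 3 each). Eno1b, with 348 ± 47.6 TPM in WT, ranked between Eno2 and Eno3 there, and with 2.20 ± 1.18 TPM in Wfs1-KO (SD, n = 3 each) it stood beside Eno4 (1.70 to 4.36 TPM). The widely expressed gene thus led and the neuronal gene came next in either genotype, with muscle and sperm-tail genes well below.

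This order was tested across the 6 retinas on the log2(TPM + 0.1) scale with a two-sided exact permutation test that flips signs, for which 0.03125 is the smallest p the design allows. Eno1 exceeded Eno2 by 2.03 ± 0.13 (SD, n = 6), a 4.07-fold difference seen in 6 of 6 retinas (exact p = 0.03125, adjusted p = 0.0625 over 4 neighbouring pairs). Eno2 exceeded Eno3 by 4.22 ± 0.37 (SD, n = 6), an 18.7-fold difference also seen in 6 of 6 retinas (exact p = 0.03125, adjusted p = 0.0625). Every retina gave the same direction for both pairs, yet neither adjusted p was under 0.05. The adjustment also counted the pairs that hold Eno1b, whose p-values were higher because their order differed between genotypes. Beside them, 0.0625 was the lowest adjusted p that Eno1 over Eno2 and Eno2 over Eno3 could reach. Missing 0.05 therefore says nothing about their order. As the genotype difference of Eno1b chose the genes, the order of its pairs is given by genotype and with no p-value. Eno1b was above Eno3 and Eno4 in 3 of 3 WT retinas and below both in 3 of 3 Wfs1-KO retinas.

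Summed over the 5 genes, the enolase pool was 3679, 3122 and 3462 TPM in WT and 3785, 2938 and 3348 TPM in Wfs1-KO replicates 1, 2 and 3. The groups overlapped, with means of 3421 ± 281 TPM and 3357 ± 424 TPM (SD, n = 3 each). Eno1b made up 10.1 ± 0.605% of the pool in WT and 0.0636 ± 0.0313% in Wfs1-KO, and Eno1 made up 70.3 ± 0.663% and 80.3 ± 1.11% (SD, n = 3 each). Eno2 had nearly the same share in each, 18.5 ± 0.384% and 18.4 ± 0.995% (SD, n = 3 each). Eno1 and Eno1b together had 2965, 2497 and 2801 TPM in WT and 3086, 2352 and 2657 TPM in Wfs1-KO, so that the joint level overlapped where the division between both genes did not. Wfs1-KO replicate 2 was the highest of 6 for this sum in CPM (3058) and the lowest in TPM (2352), so that its rank depended on the scale, as for Eno2. The ratio of Eno1 to Eno2, which involves no scaling between libraries, was 3.80 ± 0.0947 in WT and 4.36 ± 0.291 in Wfs1-KO (SD, n = 3 each). The groups did not overlap, at 3.71 to 3.90 in WT and 4.07 to 4.65 in Wfs1-KO, but this ratio depends on which reads were assigned to Eno1b. With the TPM of Eno1b added to that of Eno1, the ratio to Eno2 was 4.35 ± 0.113 and 4.37 ± 0.291 (SD, n = 3 each), and the groups overlapped. Each gene was divided by its own exon length, 2546 bases for Eno1 and 1877 for Eno1b. A read placed on Eno1b therefore weighed more than one placed on Eno1. This summed ratio, like the joint TPM, thus still depends on how reads were divided, and nothing is read from its near equality.

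Other copies of Eno1 could take part in the same reads. Of the annotated transcripts, 17 processed pseudogenes aligned to the Eno1 coding sequence, with identities from 75.3% to 99.6%, and 9 of them had 0 counts in all 6 retinas. Gm4735 (chromosome 2, 80837141 to 80838442) is 99.6% identical over the aligned part and had 253, 120 and 70 counts in WT and 252, 136 and 112 in Wfs1-KO replicates 1, 2 and 3. This near-identical copy did not pass the threshold (log2 fold change -0.33, SE 0.30, adjusted p = 0.979, edgeR). Gm5855 (chromosome 3, 96.3% identical) had 31, 10 and 2 counts in WT and 7, 6 and 1 in Wfs1-KO, too few to be tested with all retinas. It passed the filter without Wfs1-KO replicate 2, and these few counts then gave a log2 fold change of -2.45 (SE 0.91). Gm7213 (chromosome 10, 86.0% identical) had 7, 9 and 6 counts against 47, 2 and 13, and a fitted log2 fold change of 0.50 (SE 0.85, edgeR adjusted p = 0.979), and of 1.01 (SE 0.67) without Wfs1-KO replicate 2. Gm8483 (chromosome 14), Gm33707 (chromosome 3) and AC150274.1 (chromosome 18) had no more than 15 counts in any retina. AC150274.1 lies 19.9 kb from Eno1b on the opposite strand, is 90.9% identical to the Eno1 coding sequence, and had 5, 1 and 0 counts in WT and 7, 4 and 3 in Wfs1-KO replicates 1, 2 and 3.

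The surroundings of Eno1b were nearly silent in these retinas. The gene sits inside an intron of 51.2 kb, between exons that end at 48008632 and start at 48059874, of the long gene G630055G22Rik on the same strand, whose 8 exons do not overlap Eno1b and which had 0 counts in all 6 retinas. Of the 7 other genes within 500 kb, this one included, 6 had 0 counts in every retina, the remaining 1 was AC150274.1, and 0 passed the filter for testing. Whether the neighbourhood differed between genotypes could not be tested at that distance. The nearest tested genes were Sema6a, a semaphorin, at 676 kb (log2 fold change -0.05, SE 0.20, adjusted p = 0.983) and Dtwd2, a tRNA-modifying enzyme, at 1648 kb (0.05, SE 0.25, adjusted p = 0.985; edgeR for both).

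Around Eno1, by contrast, 11 of 27 genes within 500 kb were tested, 0 had an adjusted p under 0.05 and 3 had an unadjusted p under 0.05, against 2.81% of all tested genes (edgeR). H6pd, which starts the pentose phosphate pathway inside the endoplasmic reticulum, had 5.46 ± 0.431 CPM in WT and 7.92 ± 0.719 CPM in Wfs1-KO (SD, n = 3 each; log2 fold change 0.54, SE 0.21, adjusted p = 0.979). Gm13068 and Gm13091, both annotated as antisense genes, had log2 fold changes of -1.52 (SE 0.46) and 1.43 (SE 0.55), also with adjusted p = 0.979, and reads of their antisense partners cannot be told apart without a stated strand setting. For each of these 3 genes, picked by unadjusted p, the groups did not overlap, as for 8.96% of all tested genes, and none passed the threshold. Without Wfs1-KO replicate 2 the log2 fold changes were 0.53 for H6pd, -1.15 for Gm13068 and 1.00 for Gm13091, and that of Gm13091 (SE 0.59) no longer had an unadjusted p under 0.05. In that fit 3 of 11 tested genes again had an unadjusted p under 0.05, now with Slc25a33. Its log2 fold change was -0.47 (SE 0.14, adjusted p = 0.593, edgeR), against -0.17 (SE 0.24) with all retinas. The nearest tested neighbours, Rere at 32.8 kb (0.11, SE 0.24; 0.30, SE 0.15, without Wfs1-KO replicate 2) and the fructose transporter gene Slc2a5 at 92.8 kb (0.52, SE 0.39), did not pass either.

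The remaining enzymes of glycolysis put the enolases in context. Of 32 listed genes, which leave out the enolases, 26 were tested, 0 had an adjusted p under 0.05 and 0 an unadjusted p under 0.05, the adjusted p-values of edgeR ranging from 0.979 to 0.991. DESeq2 also called 0 of them. Log2 fold changes were above 0 for 12 and below 0 for 14, with a median of -0.03, beside 0.02 over all tested genes, and without Wfs1-KO replicate 2 they were above 0 for 7 and below 0 for 19, with a median of -0.08. The sign of 9 of the 26 genes changed when that retina was left out. The enzymes on either side of enolase were Pgam1 and Pgam2, the mutases that make its substrate, with -0.42 (SE 0.34) and 0.09 (SE 0.28), and Bpgm, which makes the bisphosphoglycerate intermediate, with 0.17 (SE 0.20). Without Wfs1-KO replicate 2 these became -0.11 for Pgam1, 0.30 for Pgam2 and -0.04 for Bpgm. Pkm, the pyruvate kinase that uses its product, had 3726 ± 379 CPM in WT and 3198 ± 602 CPM in Wfs1-KO (SD, n = 3 each; log2 fold change -0.22, SE 0.19). Without Wfs1-KO replicate 2, Pkm was the 1 gene of the list with an unadjusted p under 0.05 (log2 fold change -0.39, SE 0.12, adjusted p = 0.673). Pklr, the liver and red cell pyruvate kinase, was below the filter.

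At the ends of the list the values were larger but so were their errors. The highest were Pfkfb1, a regulator of fructose 2,6-bisphosphate, with 0.67 (SE 0.38), the hexokinase-like Hkdc1 with 0.44 (SE 0.22) and the lactate dehydrogenase subunit Ldhb with 0.35 (SE 0.31). The lowest were the hexokinase Hk3 with -0.94 (SE 0.56), Pgam1, and Pfkfb2 with -0.38 (SE 0.28). Some of these ranks leaned on Wfs1-KO replicate 2. Without it Pfkfb1 (0.51) was still the highest and Hk3 (-0.87) the lowest, and Hkdc1 had 0.28. Ldhb (-0.05), Pgam1 (-0.11) and Pfkfb2 (-0.17) were then no longer at the ends of the list. Groups did not overlap for 2 of the 26 genes, Hkdc1 (higher) and Ldha (lower), the other lactate dehydrogenase subunit, a share of 7.69% that is near the 8.96% of all tested genes. The log2 fold change of Eno1b was several times that of any of these genes, whereas those of Eno1, Eno2, Eno3 and Eno4 lay within their range.

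**Figure D4:**
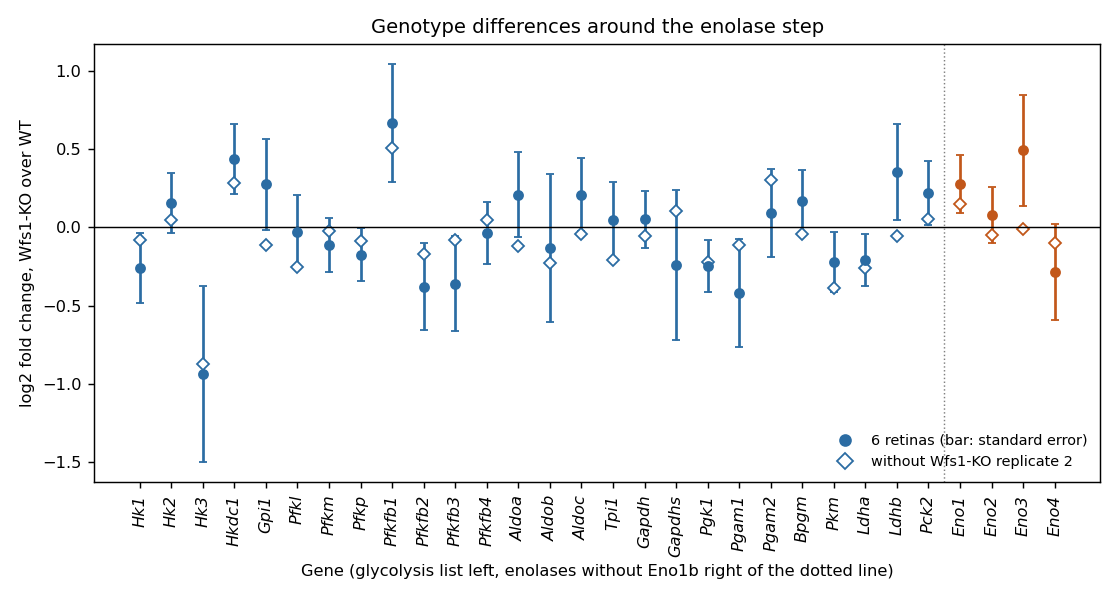
Log2 fold change, Wfs1-KO over WT, of the 26 tested glycolysis genes and, right of the dotted line, of Eno1, Eno2, Eno3 and Eno4, with bars for the standard error and open diamonds for the fit without Wfs1-KO replicate 2. The points lie between -0.94 and 0.67, and Eno2, Eno3 and 9 of the 26 glycolysis genes cross 0 when that retina is left out; Eno1b, at -7.30, is beyond this axis and is not drawn.

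Genes whose pattern over the 6 retinas was most like that of each enolase were found by the Pearson correlation of log2 CPM, which over so few points that share libraries is a description only. For Eno1b these were Nrg4, a ligand of the epidermal growth factor family (r = 0.999), the non-coding gene Gm43305 (r = 0.998) and Spry4, an inhibitor of receptor tyrosine kinase signalling (r = 0.994). All 3, on different chromosomes, were lower in every Wfs1-KO retina. Their choice by likeness to Eno1b fixes this, and the groups did not overlap for 8.96% of all tested genes in either direction. Nrg4, on chromosome 9, averaged 1.80 ± 0.124 CPM in WT and 0.395 ± 0.0614 CPM in Wfs1-KO. Gm43305, on chromosome 14, averaged 12.3 ± 0.923 CPM and 4.52 ± 0.351 CPM, and Spry4, which like Eno1b is on chromosome 18, averaged 18.6 ± 0.279 CPM and 10.2 ± 0.611 CPM (SD, n = 3 each). Their differences between the group means were far smaller than that of Eno1b. For Eno1 the most alike were 4933407L21Rik (r = 0.999), the cell cycle inhibitor Cdkn2b (r = 0.992) and Ptges, a prostaglandin E synthase (r = 0.991). For Eno2 they were Tmem246, Dnajc4 and Puf60 (r = 0.998 each), and for Eno3 Gm45148 (r = 0.999), Rsph10b (r = 0.999) and Zfp335os (r = 0.998). For Eno4 they were Edc4 (r = 0.990), 1700022N22Rik (r = 0.989) and A730081D07Rik (r = 0.989).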

How the data were processed

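Total RNA of 6 whole retinas, 3 per genotype, was sequenced. RNA was isolated with Trizol per the labels and with a column kit per the methods. The submitters' processing notes name Trimmomatic 0.39, STAR 2.5.3a, featureCounts 1.6.4 and mm10, and the methods give other versions of some tools. The authors deposited raw counts per gene with exon lengths. The strand setting and the treatment of reads with several matches are not given in the sources used here. Columns were assigned by genotype letter (C as WT, W as Wfs1-KO, a reading the Wfs1 levels go with) and replicate number, and 2 of 8 library columns, whose number matched none of the samples, were left out.

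From these counts the genotypes were compared in edgeR 4.0.16 (R 4.3.3; TMM, filterByExpr, quasi-likelihood test, Benjamini-Hochberg over all tested genes, threshold 0.05), with DESeq2 1.42.0, RLE scaling, no filter, a replicate block and each retina left out as alternatives. In simulated counts, 162 of 200 genes changed by a log2 fold of 2 were recovered with 6 retinas, and 192 of 200 without Wfs1-KO replicate 2. All genes called numbered 170 and 212, so each fit also made false calls. The changed genes were drawn from those with higher mean counts, and no outlying library was simulated. These rates do not cover smaller changes or genes with low counts. TPM used the deposited exon lengths. Copies were searched with blastn 2.17.0 among GENCODE M21 transcripts, and 98.4% of table genes matched that annotation. Named genes were the 5 enolases and Wfs1; glycolysis genes past the threshold, the 3 highest and 3 lowest, and those next to enolase; genes within 500 kb with an unadjusted p under 0.05 and the nearest tested; copies with at least 10 counts; and the 3 most alike genes per enolase. Ldha, Tnnc2, Myh4, Mylpf, Alas2 and Slc25a33 were named after their values were seen. The genes and lists were chosen with earlier results of these data known. P-values measure the spread between these mice.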

Additional observations from a re-analysis of the deposited data

How the results depend on the processing

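The number of genes past the threshold was 2 with all retinas, 2 with RLE scaling, 49 with DESeq2 (19921 genes with an adjusted p), 9 with no filter on low counts (32799 genes) and 1 with the replicate number as a block, and it ranged from 0 to 24 with each retina left out, where 0 followed from leaving out any 1 WT retina, 24 from leaving out Wfs1-KO replicate 2, and 1 from leaving out Wfs1-KO replicate 1 or replicate 3. The cause was not tested, beyond the common dispersion of 0.128 falling to 0.0322 without Wfs1-KO replicate 2. Same-numbered retinas did not deviate together (correlations -0.23, -0.11 and 0.078 for replicates 1, 2 and 3). With so few retinas per group, these correlations cannot show whether same-numbered retinas shared a litter or a preparation. The block moved the log2 fold change of Eno1b to -7.37. The log2 fold change of Eno1b ranged from -7.48 to -7.03 and that of Eno1 from 0.15 to 0.38 with each retina left out. That of Eno2 ranged from -0.048 to 0.16 and that of Eno3 from -0.0081 to 0.70, both turning negative without Wfs1-KO replicate 2. That of Eno4 ranged from -0.44 to -0.10. The mean difference of Eno3 over Eno1b in log2 TPM mixes genotypes with opposite orders, so its sign followed the genotype that lost a retina. It was 1.10, 1.07 and 1.15 without WT replicates 1, 2 and 3. Without Wfs1-KO replicates 1, 2 and 3 it was -0.29, -0.73 and -0.29. With 5 retinas the smallest p of the sign-flip test is 0.0625. A glycolysis gene passed the threshold in 0 of the alternatives, DESeq2 and the block included, and so did 0 genes near Eno1 or Eno1b with each retina left out or with windows of 2000 kb (78 genes tested), the alternatives run for them. The Eno1b share in Wfs1-KO retinas rests on 34 to 178 counts.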
